A study of Homo sapiens with 12 samples.

Results

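The genes described here are 10 genes of the prostaglandin pathway, namely the phospholipase gene PLA2G4A, the cyclooxygenase genes PTGS1 and PTGS2, the synthase genes PTGES, PTGIS and PTGDS, the receptor genes PTGER2, PTGER4 and PTGFR, and the breakdown gene HPGD. They were chosen by symbol from the 28901 named genes of the count table, with earlier results of these data known. All 10 had a row and all 10 passed the filter on low counts in every comparison.

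The samples were day 14 adipocytes derived from ASC52telo hTERT, a human adipose stromal line immortalized with telomerase, and they were profiled by RNA-seq of polyA RNA. The cells expressed either a scramble shRNA (scramble) or an shRNA against linc-ADAIN (KD), a long intergenic non-coding RNA of adipocytes, and were left untreated or given lipopolysaccharide (LPS), a bacterial endotoxin, at 100 ng/mL for 4 h. There were 3 libraries in each of the 4 groups, called scramble, scramble LPS, KD and KD LPS below. The study compared the shRNAs to learn how the lincRNA affects adipocyte differentiation and inflammatory gene expression. All 4 groups shared the same line, a lentiviral vector with sorting for its ZsGreen marker, and a medium in which dexamethasone, a glucocorticoid, was present until day 14. The knockdown was a single hairpin in 1 cell line, and the level of the lincRNA was not analysed here. The paper's legends give its RNA-seq values as N = 1 in triplicate, and the labels do not say that the libraries came from separate cultures. The p-values therefore measure only the spread between these libraries and not the spread between experiments.

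Prostaglandins are short-range lipid signals. Phospholipase A2 frees arachidonic acid from membranes, the cyclooxygenases convert it to prostaglandin H2, terminal synthases turn that into prostaglandin E2, prostacyclin or prostaglandin D2, and each product acts on its own G protein-coupled receptors before it is oxidized to inactive forms. PTGS1 encodes the cyclooxygenase that many tissues make constantly and PTGS2 the one that inflammatory stimuli induce. In adipose tissue prostaglandin E2 is known to restrain lipolysis through the receptor encoded by PTGER3, and prostaglandin F2alpha is known to inhibit adipocyte differentiation.

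The promoters shown are those of PTGS2, PTGES and PTGFR, the members that rose with LPS with both shRNAs. They come from RefSeq on GRCh38.p14 and hold the 250 bases before the annotated start, written 5′ to 3′ on the strand of the gene. Capitals mark a CRE half-site (TGACG) or a TATA box (TATAAA) found on either strand.
PTGS2, chr1:186680424-186680673, minus strand: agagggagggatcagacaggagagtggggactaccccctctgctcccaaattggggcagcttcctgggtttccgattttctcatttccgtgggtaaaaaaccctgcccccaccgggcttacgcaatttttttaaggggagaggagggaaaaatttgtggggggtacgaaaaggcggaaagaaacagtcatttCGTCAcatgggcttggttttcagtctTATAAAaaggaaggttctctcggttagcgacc
PTGES, chr9:129753043-129753292, minus strand: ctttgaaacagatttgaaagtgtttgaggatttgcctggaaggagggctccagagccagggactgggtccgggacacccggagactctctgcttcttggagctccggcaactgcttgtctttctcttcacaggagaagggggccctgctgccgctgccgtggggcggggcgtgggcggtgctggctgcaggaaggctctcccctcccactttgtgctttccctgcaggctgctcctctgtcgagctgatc
PTGFR, chr1:78490724-78490973, plus strand: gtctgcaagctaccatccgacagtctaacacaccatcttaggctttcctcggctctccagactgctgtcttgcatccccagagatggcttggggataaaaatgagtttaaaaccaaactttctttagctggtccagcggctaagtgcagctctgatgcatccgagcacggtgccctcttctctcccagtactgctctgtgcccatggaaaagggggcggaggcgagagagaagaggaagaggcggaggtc
Windows that ran a further 50 bases past the start were searched on both strands. The motifs were the kappaB consensus (GGGRNNYYCC), AP-1 (TGANTCA), the CRE half-site and the TATA box, where R is A or G, Y is C or T and N is any base. Near matches were not counted, for example gggactaccc in PTGS2, which differs from the kappaB consensus in a single base. No match of one motif overlapped a match of another in the members' promoters. In PTGS2 a TATA box began at position -32 on the strand shown. A CRE half-site lay at position -58 on the opposite strand, with another on that strand at position 25 beyond the bases shown. PTGES and PTGFR held none of the 4 motifs in this window. Of 35116 promoters of this length, 11.3% held the kappaB consensus, 7.71% AP-1, 24.6% the CRE half-site and 11.5% the TATA box. A match is a description of letters, and binding was not measured here. Among the other members, PTGER2 held a kappaB consensus at position -155 and a CRE half-site at -137, and PTGER4 held a kappaB consensus at -244. HPGD and PTGS1 have 2 promoter entries each, of which one of HPGD held a kappaB consensus at -70, the other a CRE half-site at -77, and one of PTGS1 a TATA box at -208.

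PTGS2, PTGES and PTGFR rose with LPS in scramble and in KD adipocytes, while the knockdown raised PTGS2 and PTGFR and lowered PTGS1, PTGES, PTGIS and PTGER2, with and without LPS. PTGS2 went from a mean of 6.85 CPM in scramble to 301 CPM in KD LPS, a ratio of 43.9. Over the same groups PTGS1 went from 896 to 353 CPM. CPM are counts per 1e6 counts after scaling of the libraries by TMM, a method of edgeR that sets libraries to a common level. A gene passed when its adjusted p from edgeR's quasi-likelihood test was under 0.05.

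In KD against scramble without LPS, 2 members were higher, 4 lower and 4 did not pass, where 12.1% of the 16217 genes tested were higher and 15.1% lower. With at least a 2-fold difference, 2 were higher and 1 lower, against 4.28% and 3.49% of all genes. With LPS, 2 members were higher and 4 lower in KD, against 12.7% and 14.2% of 15981 genes, and 1 was higher and 2 lower by at least 2-fold, against 4.58% and 3.9%. In scramble adipocytes LPS raised 3 members and 7 did not pass, where 5.9% of 15920 genes rose and 8.38% fell. Of these members 2 rose by at least 2-fold, against 1.4% of all genes that rose and 1.28% that fell by as much. In KD adipocytes LPS raised 4 members and lowered 2, against 5.32% and 6.03% of 16169 genes, and 1 rose by at least 2-fold, where 1.3% of all genes rose and 0.946% fell by as much. The interaction, which compares the KD effect with LPS with the KD effect without it, passed for 1 member, with a more positive effect, where 0.943% of 17173 genes had a more positive and 0.332% a more negative effect. The median log2 fold change over the 10 members was -0.49 for KD without LPS, -0.45 for KD with LPS, 0.04 for LPS in scramble and 0.41 for LPS in KD, where the medians over all genes tested lay between 0.01 and 0.03. The split of all genes depended on the scaling. By library size only, 17.2% were higher and 10.8% lower in KD without LPS, 16.3% and 11.2% in KD with LPS, 4.89% and 10.1% with LPS in scramble and 4.13% and 7.59% with LPS in KD, and upper-quartile scaling gave 0.722% and 0.425% for the interaction. No member that passed turned direction under these scalings, but by library size only or by the upper quartile PTGES and PTGER2 lost their calls in KD without LPS, which left 4 of the 6 members that passed there. KD without LPS and LPS in scramble share the scramble libraries, and the other comparisons share groups in the same way. Because the members were chosen with earlier results known, their counts beside those of all genes are a description and not a test of the pathway.

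**Figure D1:**
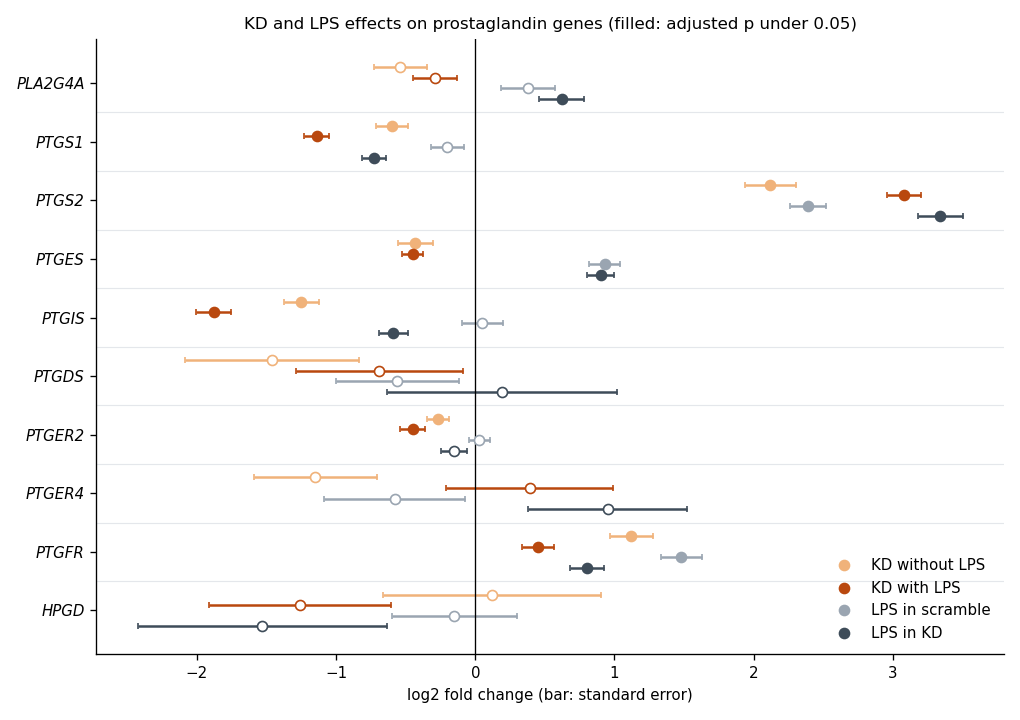
Log2 fold change (x axis) of each of the 10 members (rows) in the 4 comparisons between groups of 3 libraries, with bars for the standard error and filled points for an adjusted p under 0.05 from edgeR. PTGS2 lies farthest to the right in every comparison, from 2.12 to 3.34, and PTGIS has the lowest passing value, -1.88 for KD with LPS.

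PLA2G4A, on chromosome 1 of GRCh38 from 186828949 to 186988981 on the plus strand, encodes cytosolic phospholipase A2, which frees arachidonic acid. Its libraries were at 15.4, 10.8 and 8.98 CPM in scramble, 18.2, 13.0 and 14.1 in scramble LPS, 8.44, 8.32 and 7.33 in KD, and 12.7, 11.1 and 13.3 in KD LPS. Each KD LPS library lay above each KD library, and the scramble libraries overlapped those of scramble LPS. LPS raised PLA2G4A in KD by 0.62 ± 0.16 on the log2 scale (SE, adjusted p = 0.02). In scramble the value was 0.38 ± 0.195 (SE, adjusted p = 0.24). The interaction of 0.26 (95% interval -0.29 to 0.80) did not pass (adjusted p = 0.81), so the 2 values are not shown to differ. For KD the value was -0.54 ± 0.191 without LPS (adjusted p = 0.056) and -0.29 ± 0.158 with LPS (adjusted p = 0.21). The KD libraries lay below all scramble libraries without LPS, although the test was not passed. The LPS call in KD was lost without KD 3 (adjusted p = 0.07), without KD LPS 1 (0.064) or without KD LPS 3 (0.081). Without scramble 1, LPS in scramble passed (0.63, adjusted p = 0.048), and without scramble 3 the KD difference without LPS passed (-0.71, adjusted p = 0.02).

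PTGS1, on chromosome 9 from 122370530 to 122395703 on the plus strand, encodes cyclooxygenase-1. Its libraries were at 1065, 813 and 810.1 CPM in scramble, 864, 691 and 769 in scramble LPS, 535, 560.0 and 668 in KD, and 353, 374 and 332 in KD LPS. The KD libraries were all below the scramble libraries, and the KD LPS libraries were below those of every other group. KD lowered PTGS1 by a log2 fold change of -0.60 ± 0.116 without LPS (SE, adjusted p = 0.0022) and -1.14 ± 0.0888 with LPS (adjusted p = 4.9e-07). LPS lowered it in KD by -0.73 ± 0.0851 (adjusted p = 3.7e-05), and in scramble the value was -0.20 ± 0.117 (adjusted p = 0.32). The interaction of -0.53 did not pass (adjusted p = 0.13), so the fall with LPS in KD is not shown to differ from the value in scramble. Without scramble 1 the interaction passed (-0.67, adjusted p = 0.025), and it also passed by DESeq2 (adjusted p = 0.025) and with no filter on low counts (adjusted p = 0.021).

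PTGS2, on chromosome 1 from 186671791 to 186680922 on the minus strand, encodes cyclooxygenase-2, and its promoter is the first of those shown above. The start used for that promoter, and the bases shown before it, lie inside this span. It was at 5.81, 7.27 and 7.48 CPM in the scramble libraries and at 31.5, 37.7 and 37.8 CPM after LPS. In KD it was at 31.2, 35.8 and 21.8 CPM, and in KD LPS at 305, 253 and 344 CPM. The KD and scramble LPS libraries overlapped, and the KD LPS libraries lay far above all others. LPS raised PTGS2 5.25-fold in scramble (log2 2.39 ± 0.129, SE, adjusted p = 4.6e-07) and 10.1-fold in KD (3.34 ± 0.161, adjusted p = 3.1e-09). KD raised it 4.34-fold without LPS (2.12 ± 0.181, adjusted p = 4.7e-06) and 8.43-fold with LPS (3.08 ± 0.12, adjusted p = 1.4e-09).

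PTGS2 was also the member that passed the interaction, at 0.96 on the log2 scale (95% interval 0.50 to 1.42, adjusted p = 0.034), so the fold rise with LPS was 1.95 times as large in KD as in scramble. The interaction stayed between 0.76 and 1.11 with each of the 12 libraries left out in turn. The call was lost in 8 of these fits, namely without scramble 2 (adjusted p = 0.11) or 3 (0.069), without scramble LPS 1 (0.079), 2 (0.054) or 3 (0.053), without KD 1 (0.069), and without KD LPS 1 (0.08) or 3 (0.1). It was also lost with edgeR's filterByExpr filter (adjusted p = 0.054). For the 4 pairwise comparisons every alternative stayed past the threshold.

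**Figure D2:**
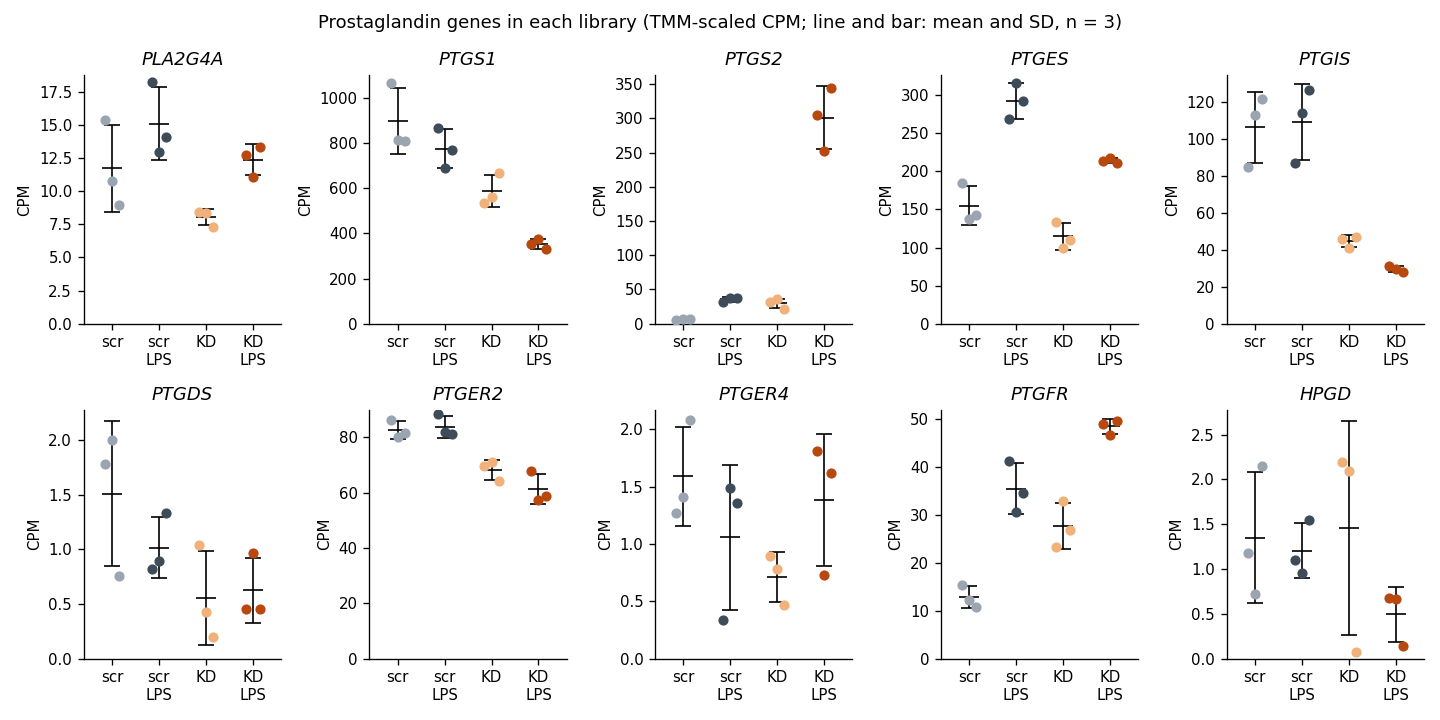
TMM-scaled CPM (y axis, each panel from 0) of each of the 10 members in scramble (scr), scramble LPS, KD and KD LPS, with 1 point per library and the mean ± SD of 3 libraries. PTGS2 reaches 253 to 344 CPM in KD LPS, whereas PTGS1 and PTGIS are lowest in that group.

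To compare the 2 cyclooxygenase genes, CPM were divided by the length of the canonical transcript in kilobases (5.02 kb for PTGS1 and 4.51 kb for PTGS2). On this scale the share of PTGS2 in the sum of PTGS1 and PTGS2 was 0.603%, 0.985% and 1.02% in the scramble libraries and 3.89%, 5.73% and 5.19% in scramble LPS. It was 6.09%, 6.64% and 3.5% in KD and 49.0%, 42.9% and 53.6% in KD LPS. The means were 0.868% ± 0.23, 4.94% ± 0.943, 5.41% ± 1.68 and 48.5% ± 5.35 (SD, n = 3). The 2 genes were at like levels per kilobase in KD LPS alone, at 70.3 CPM per kb for PTGS1 and 66.7 CPM per kb for PTGS2, and their libraries overlapped there. This share is a level of mRNA and not of enzyme or product.

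**Figure D3:**
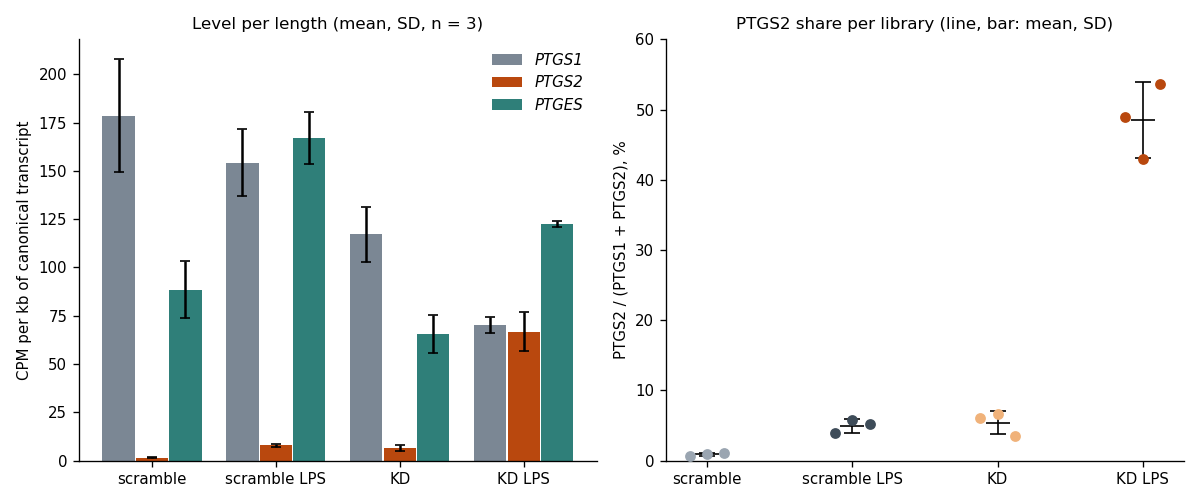
Left, mean level of PTGS1, PTGS2 and PTGES in each group in CPM per kb of canonical transcript (bars from 0, error bars SD, n = 3 libraries). Right, the share of PTGS2 in the sum of PTGS1 and PTGS2 per kb in each library (points) with mean and SD, which is 42.9% to 53.6% in KD LPS and at most 6.64% in the other libraries.

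PTGES, on chromosome 9 from 129738331 to 129753042 on the minus strand, encodes the inducible microsomal prostaglandin E synthase. Its libraries were at 185, 138 and 142 CPM in scramble, 269, 316 and 293 in scramble LPS, 134, 99.8 and 110.0 in KD, and 214, 217 and 211 in KD LPS. All LPS libraries lay above the untreated libraries of the same shRNA, and all KD LPS libraries lay below those of scramble LPS. LPS raised PTGES by 0.93 ± 0.112 in scramble (log2, SE, adjusted p = 0.00019) and 0.90 ± 0.0974 in KD (adjusted p = 1.8e-05). KD lowered it by -0.43 ± 0.128 without LPS (adjusted p = 0.026) and -0.45 ± 0.0767 with LPS (adjusted p = 0.00059). The interaction was -0.01 (95% interval -0.35 to 0.32, adjusted p = 1). Without LPS the KD call was lost without scramble 1 (adjusted p = 0.11), KD 2 (0.1) or KD 3 (0.079), and with scaling by library size only (0.071) or by the upper quartile (0.05).

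PTGIS, on chromosome 20 from 49503874 to 49568137 on the minus strand, encodes prostacyclin synthase. It was at 84.8, 113 and 122 CPM in the scramble libraries and 87.1, 114 and 127 CPM in scramble LPS, a pair of groups that overlapped. In KD it was at 46.0, 41.0 and 47.1 CPM and in KD LPS at 31.4, 29.9 and 27.8 CPM, with no overlap between those groups or with scramble. KD lowered PTGIS 2.38-fold without LPS (log2 -1.25 ± 0.124, SE, adjusted p = 1.5e-05) and 3.69-fold with LPS (-1.88 ± 0.126, adjusted p = 1.1e-07). LPS lowered it in KD by -0.59 ± 0.103 (adjusted p = 0.0014), and in scramble the value was 0.05 ± 0.148 (adjusted p = 0.87). The interaction of -0.63 did not pass (adjusted p = 0.14), though it passed by DESeq2 (0.042), with no filter on low counts (0.018) and without scramble LPS 1 (-0.77, adjusted p = 0.035).

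PTGDS, on chromosome 9 from 136975092 to 136981742 on the plus strand, encodes the lipocalin-type prostaglandin D synthase. Few reads fell on it, with 94, 105 and 35 counts in scramble, 32, 27 and 57 in scramble LPS, 36, 23 and 8 in KD, and 16, 45 and 13 in KD LPS. The groups overlapped in every comparison and no test was passed. The log2 difference of KD without LPS was -1.46 with a 95% interval from -2.82 to -0.09 (adjusted p = 0.11). Without KD 1 it passed (-2.25, adjusted p = 0.025).

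PTGER2, on chromosome 14 from 52314305 to 52328598 on the plus strand, encodes EP2, a prostaglandin E2 receptor that raises cyclic AMP. Its libraries were at 86.2, 80.03 and 81.5 CPM in scramble, 88.4, 81.9 and 81.1 in scramble LPS, 69.5, 71.0 and 64.1 in KD, and 67.7, 57.4 and 58.8 in KD LPS. The scramble libraries of either kind lay above all KD libraries. KD lowered PTGER2 by -0.27 ± 0.0776 without LPS (log2, SE, adjusted p = 0.022) and -0.45 ± 0.0911 with LPS (adjusted p = 0.0021). With LPS the log2 values were 0.03 in scramble (95% interval -0.13 to 0.20) and -0.15 in KD (-0.36 to 0.05). The call without LPS was lost without scramble 1 (adjusted p = 0.088), scramble 2 (0.052) or KD 3 (0.068), and with scaling by library size only (-0.17, 0.15) or by the upper quartile (0.061).

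PTGER4, on chromosome 5 from 40679915 to 40693735 on the plus strand, encodes EP4, the other prostaglandin E2 receptor that raises cyclic AMP. It had 67, 74 and 97 counts in scramble, 13, 45 and 58 in scramble LPS, 31, 42 and 19 in KD, and 64, 34 and 46 in KD LPS. Its mean level was 0.714 to 1.59 CPM, and no test was passed. The log2 value for KD without LPS was -1.15 with a 95% interval from -2.12 to -0.18 (adjusted p = 0.078). With LPS it was 0.39, from -0.91 to 1.68 (adjusted p = 0.71).

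PTGFR, on chromosome 1 from 78303884 to 78540701 on the plus strand, encodes FP, the prostaglandin F2alpha receptor. The start used for its promoter above lies inside this span. It was at 15.3, 12.3 and 10.9 CPM in scramble and 41.1, 30.6 and 34.6 CPM in scramble LPS. In KD it was at 23.3, 32.9 and 26.8 CPM and in KD LPS at 49.0, 46.7 and 49.6 CPM. The scramble libraries were the lowest and the KD LPS libraries the highest, with the KD and scramble LPS libraries overlapping between them. LPS raised PTGFR 2.79-fold in scramble (log2 1.48 ± 0.146, SE, adjusted p = 4e-05) and 1.75-fold in KD (0.80 ± 0.122, adjusted p = 0.00044). KD raised it 2.17-fold without LPS (1.12 ± 0.155, adjusted p = 0.00022) and 1.36-fold with LPS (0.45 ± 0.113, adjusted p = 0.0093). The interaction was -0.66 (95% interval -1.08 to -0.24, adjusted p = 0.14) and passed with no filter on low counts (adjusted p = 0.032).

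HPGD, on chromosome 4 from 174490175 to 174523154 on the minus strand, encodes the dehydrogenase that starts the inactivation of prostaglandins. It had 62, 38 and 100 counts in scramble, 43, 29 and 66 in scramble LPS, 76, 113 and 3 in KD, and 24, 31 and 4 in KD LPS. The KD 3 and KD LPS 3 libraries were far below the other libraries of their groups. No test was passed, and the 95% interval of the log2 difference ran from -1.60 to 1.83 for KD without LPS and from -3.45 to 0.39 for LPS in KD. The summed adipocyte markers, described below, were also lowest in these libraries within their groups, at 829 CPM in KD 3 and 1223 CPM in KD LPS 3. The part of the markers in the HPGD counts was not tested.

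Per kilobase of canonical transcript, PTGS1 was the member with the highest mean level in scramble (179 CPM per kb) and KD (117), followed by PTGES (88.4 and 65.4). In scramble LPS, PTGES (167) and PTGS1 (154) led and their libraries overlapped. In KD LPS, PTGES (122) stood above PTGS1 and PTGS2. PTGER2 was the most abundant receptor gene of the 3 in every group, at 24.9 to 34.1 CPM per kb, without overlap with PTGFR at 2.36 to 8.92. PTGS2 was among the low members in scramble at 1.52 CPM per kb, where its libraries overlapped those of PTGDS (1.86), and PTGDS overlapped PTGFR (2.36). HPGD and PTGER4 were at the bottom in each group, between 0.189 and 0.555 CPM per kb, and their libraries overlapped. These orders are descriptions with no test.

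The genes most like PTGS2 and PTGES were sought among 11810 other genes that averaged 50 counts or more per library, by the root mean square difference between log2 CPM values centred on each gene's mean over the 12 libraries. For PTGS2 these were CCL5, a chemokine gene (0.413), KLF5, a transcription factor gene (0.427), and TNIP3, whose product restrains NF-kappaB signaling (0.556). CCL5 went from 0.345 CPM in scramble to 2.78 in scramble LPS, 1.175 in KD and 22.5 in KD LPS. Its scramble mean was below the offset of 0.5 used for log2 CPM, so the offset weighs on its likeness. KLF5 went from 0.718 CPM in scramble to 3.11 in scramble LPS, 3.61 in KD and 33.1 in KD LPS. For PTGES these were PDZRN3 (0.105), SNAI2, a transcription factor gene (0.157), and MAML2, a Notch coactivator gene (0.179). PDZRN3 was at 60.9, 109.9, 43.7 and 79.1 CPM in scramble, scramble LPS, KD and KD LPS. The likeness covers libraries of 4 groups and was not tested.

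Other genes of the pathway were counted from lists by role. Of 8 other phospholipase A2 genes, 7 were tested in KD against scramble without LPS, where 1 was higher and 1 lower, and 6 with LPS, where 2 were lower and 4 did not pass. PLAAT3, the phospholipase abundant in adipocytes, was lower in KD with and without LPS (log2 -2.14, adjusted p = 1.6e-07, and -1.68, adjusted p = 8e-05), from means of 74.3 CPM in scramble and 89.7 in scramble LPS to 23.1 in KD and 20.3 in KD LPS. PLA2G4C, a cytosolic relative of PLA2G4A, was higher in KD without LPS (2.19, adjusted p = 0.0021), with 19, 41 and 50 counts in scramble and 93, 154 and 184 in KD. PLA2G12A, a secreted form, was lower in KD with LPS (-0.73, adjusted p = 0.00045). The median log2 fold change of the list was 0.64 without LPS and -0.21 with LPS, where all genes had 0.02 and 0.03, and 0 genes of the list passed for LPS in either shRNA by edgeR or DESeq2, with 2 higher in scramble and 0 in KD at an unadjusted p under 0.05.

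Of 9 other prostanoid synthase and reductase genes, 4 were lower and 5 did not pass in KD without LPS, and 3 were lower and 6 did not pass with LPS. AKR1B1, an aldo-keto reductase with prostaglandin F synthase activity, was at 500.0, 450 and 497 CPM in scramble and 167, 154 and 162 in KD, and at 587, 514.5 and 551 in scramble LPS and 200.0, 212 and 196 in KD LPS. KD lowered it by -1.58 ± 0.0774 without LPS (log2, SE, adjusted p = 9.8e-08) and -1.44 ± 0.077 with LPS (adjusted p = 1.3e-08), and it rose slightly with LPS in KD (0.33, adjusted p = 0.007). With LPS in scramble AKR1B1 was at 0.21 (adjusted p = 0.12), and its interaction of 0.14 did not pass (adjusted p = 0.68). AKR1C3, which makes prostaglandin F forms from prostaglandin D2, was also lower in KD (-1.24, adjusted p = 1.7e-05, and -1.51 with LPS, adjusted p = 2e-08), but its near-identical paralogs make the assignment of its reads uncertain. CBR1, a carbonyl reductase, was lower too (-0.33, adjusted p = 0.015, and -0.36 with LPS, adjusted p = 0.0089). The CBR1 call without LPS was lost without scramble 1 (0.051) or scramble 3 (0.056), and with scaling by library size only (-0.23, 0.071). TBXAS1, the thromboxane synthase gene, was lower without LPS (-0.77, adjusted p = 0.014), a call lost without scramble 2 (0.087).

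With LPS, CBR3, another carbonyl reductase, rose in scramble from 6.68, 6.96 and 6.77 CPM to 21.3, 29.3 and 29.6 and in KD from 4.64, 4.77 and 6.30 to 25.2, 28.8 and 25.6. Its log2 fold changes were 1.99 ± 0.141 in scramble (SE, adjusted p = 3.4e-06) and 2.34 ± 0.155 in KD (adjusted p = 1.1e-07). For KD with LPS it was at -0.01 (adjusted p = 0.97). PTGES2, a second prostaglandin E synthase gene, fell with LPS in KD (-0.41, adjusted p = 0.041), a call lost with any of 5 libraries left out, which were KD 1 (0.12), KD 3 (0.12), KD LPS 1 (0.15), KD LPS 2 (0.063) and KD LPS 3 (0.096). With LPS in scramble PTGES2 was at -0.35 (adjusted p = 0.087), and its interaction of -0.04 did not pass. Of the list, 1 gene rose and 8 did not pass with LPS in scramble, and 2 rose and 1 fell in KD. Of 4 transport and breakdown genes, 1 was lower and 3 did not pass in KD in either comparison. With LPS 0 of the 4 passed by edgeR or DESeq2, and at an unadjusted p under 0.05 1 was higher in scramble and 2 in KD. The gene that was lower in KD was PTGR1, a prostaglandin reductase (-0.67, adjusted p = 0.00017, and -0.74 with LPS, adjusted p = 0.00024).

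Of 7 other genes, namely 6 prostanoid receptor genes and PTGFRN, the gene of a protein that associates with the FP receptor, 6 were tested in KD against scramble without LPS, where 1 was higher and 2 lower, and 6 with LPS, where 2 were lower and 4 did not pass. PTGER3 encodes EP3, the prostaglandin E2 receptor that lowers cyclic AMP. It was at 54.1, 50.9 and 70.8 CPM in scramble and 72.0, 63.3 and 75.0 in scramble LPS, but at 4.81, 5.40 and 2.77 in KD and 3.51, 2.32 and 1.65 in KD LPS. Its log2 fold changes were -3.75 ± 0.215 without LPS (SE, adjusted p = 2.2e-07) and -4.80 ± 0.197 with LPS (adjusted p = 1.9e-09), which are 13.4-fold and 27.8-fold. PTGFRN was the other gene that was lower in both (-0.69, adjusted p = 0.00063, and -0.57, adjusted p = 0.00035). PTGIR, the prostacyclin receptor gene, was higher in KD without LPS (1.71, adjusted p = 0.0018), at 13.6, 4.92 and 9.95 CPM against 2.85, 2.42 and 3.46. It rose with LPS in scramble (0.88, adjusted p = 0.039), a call lost without scramble 1 (0.1) or 2 (0.16) and without scramble LPS 2 (0.13) or 3 (0.13), and in the fit of all 12 libraries (0.094). With LPS, 1 gene of the list rose and 5 did not pass in scramble, and in KD 0 of 5 tested passed by edgeR or DESeq2, with 1 higher and 2 lower at an unadjusted p under 0.05.

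In the lipoxygenase and leukotriene branch, which uses the same arachidonic acid, 5 of 9 genes were tested in KD without LPS, with 1 higher and 1 lower, and 5 with LPS, with 1 lower and 4 that did not pass. ALOX5AP, the 5-lipoxygenase-activating protein gene, had 48, 40 and 24 counts in scramble and 0, 0 and 7 in KD (-3.62, adjusted p = 0.046), and 16, 35 and 26 in scramble LPS and 0, 2 and 4 in KD LPS (-3.56, adjusted p = 0.044). These calls rest on few counts. The call without LPS was lost without scramble 1 (0.14), 2 (0.12) or 3 (0.081) and without KD 1 (0.08) or 2 (0.082). The call with LPS was lost without scramble LPS 2 (0.17) or 3 (0.095) and without KD LPS 1 (0.085) or 2 (0.11). LTB4R, a leukotriene B4 receptor gene, was higher in KD without LPS (1.05, adjusted p = 0.02), a call lost without scramble 1 (0.067), scramble 2 (0.075) or KD 3 (0.068). With LPS 0 genes of the branch passed in either shRNA by edgeR or DESeq2, with 2 higher in scramble and 0 in KD at an unadjusted p under 0.05. The interaction was passed by 0 genes of these pathway lists by edgeR or DESeq2, and at an unadjusted p under 0.05 by 3 phospholipase and 3 receptor genes.

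**Figure D4:**
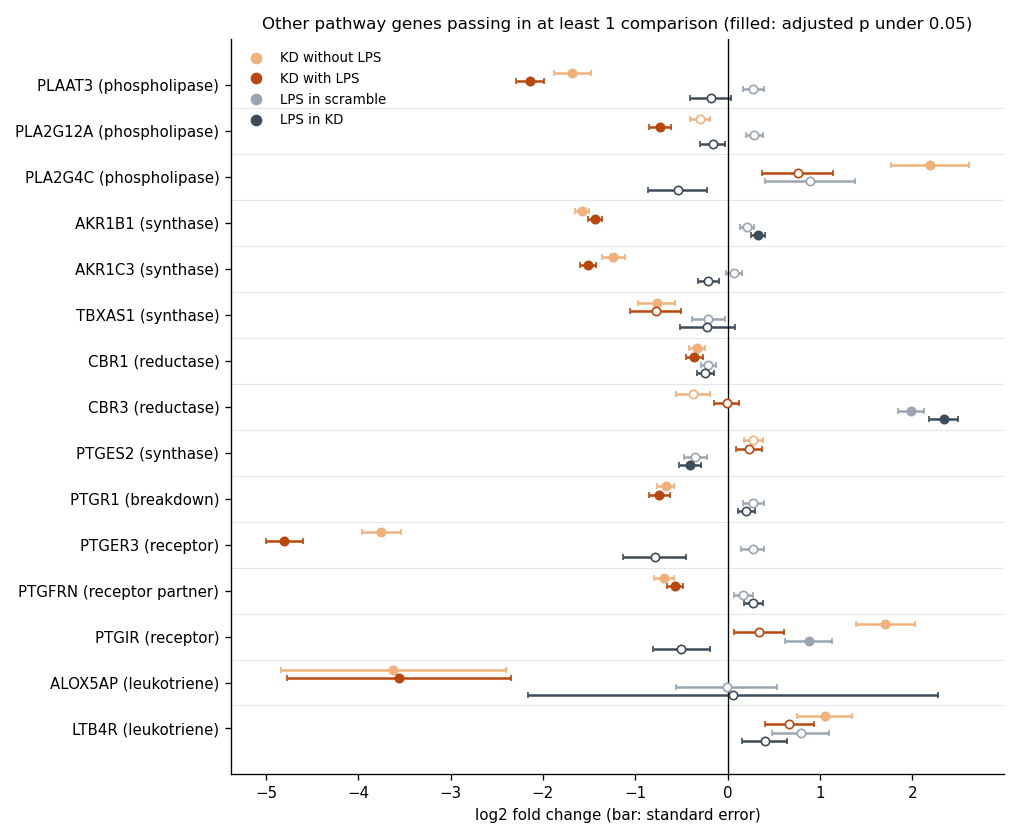
Log2 fold change (x axis) of the 15 other pathway genes that passed in at least 1 comparison (rows, with their role), in the 4 comparisons between groups of 3 libraries, with bars for the standard error and filled points for an adjusted p under 0.05 from edgeR. PTGER3 lies farthest to the left at -3.75 and -4.80 for KD, and CBR3 is the gene that passes for LPS in both shRNAs, at 1.99 and 2.34.

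Cell type markers moved with the knockdown beside these genes. Of 10 adipocyte markers, 7 were lower and 3 did not pass in KD without LPS, and 8 were lower and 2 did not pass with LPS, and their summed level was 3759 to 4905 CPM in scramble, 5184 to 5794 in scramble LPS, 829 to 2148 in KD and 1223 to 1959 in KD LPS. ADIPOQ, the adiponectin gene, had means of 919, 1154, 349 and 241 CPM in that order, whereas LPL and LEP were under 1 CPM in every group. Without LPS the log2 fold change for KD was -1.39 for ADIPOQ, -1.65 for FABP4, -1.14 for PLIN1 and -0.87 for PPARG, and all of these passed by edgeR. The paper reports the opposite direction for these genes, with higher mRNA by qPCR and more protein by western blot at the same day of differentiation. The cause of this difference was not tested. For LPS in each shRNA, 1 of the 10 markers was higher and 9 did not pass by edgeR. The marker that rose was G0S2, with means of 537, 1520, 256 and 765 CPM in the same order. The sums with LPS include its rise. Of 8 stromal and preadipocyte markers, 7 had enough counts for a test, of which KD raised 3 and lowered 3 both without and with LPS, and their sum was 5862 to 7264 CPM in scramble, 5560 to 6281 in scramble LPS, 7792 to 9286 in KD and 8661 to 9930 in KD LPS, with DLK1 at 0. DCN was the largest part of this sum, with means of 2671, 2431, 4904 and 6041 CPM in the same order. THY1, ENG and PDGFRB were lower in KD in both comparisons, and THY1 had means of 764, 749, 148 and 130 CPM. The higher sum in KD therefore does not hold for the list as a whole. The part of these shifts in the differences of PTGS1, PTGIS, PTGER2, PTGFR and the other pathway genes was not tested. In such bulk samples fewer cells of a type and less RNA per cell cannot be told apart.

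Of 9 macrophage and leukocyte markers, the sum was 52.8 to 58.7 CPM in scramble, 56.4 to 69.2 in scramble LPS, 31.3 to 37.0 in KD and 26.7 to 32.0 in KD LPS. Most of it was CD68, which stromal cells also express, while the mean of PTPRC, the leukocyte common antigen gene, was at most 0.217 CPM and AIF1 was at 0. CD68 was lower in KD without LPS (log2 -0.78, adjusted p = 5.3e-05) and with LPS (-1.25, adjusted p = 1.4e-06). CD14, the LPS co-receptor gene, was higher in KD with LPS (2.69, adjusted p = 0.0014), with 9, 14 and 15 counts in scramble LPS and 63, 89 and 87 in KD LPS, and it fell with LPS in scramble (-1.85, adjusted p = 0.026). Of 7 endothelial markers the sum was 24.0 to 27.8, 16.2 to 17.8, 12.5 to 13.4 and 9.23 to 13.8 CPM in the same order, with VWF, TEK and PECAM1 at means of 9.66, 8.71 and 7.44 CPM in scramble, CDH5 at most 0.0453 CPM and CLDN5 at 0. Of 5 tested in each KD comparison, VWF and TEK were lower without LPS, and VWF, TEK and PECAM1 were lower with LPS. KDR went the other way with LPS, from 3, 6 and 2 counts in scramble LPS to 120, 94 and 112 in KD LPS (log2 4.89, adjusted p = 3.4e-05). As a check of the treatment, 8 of 8 LPS response markers rose at least 2-fold with LPS with either shRNA. KD raised 5 of the 8 without LPS and 6 with LPS, and the others did not pass. The interaction was more positive for IL6 (1.17, adjusted p = 0.00014) and CCL2 (1.15, adjusted p = 0.016) and more negative for SOD2 (-0.81, adjusted p = 0.00099). The part of this in the levels of PTGS2 was not tested. In units of 1e6 counts the libraries held 48.1 to 53.8 in scramble, 31.5 to 44.5 in scramble LPS, 33.4 to 50.5 in KD and 28.4 to 45.3 in KD LPS, and the scramble group had the deepest median.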

How the data were processed

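RNA-seq of polyA RNA was available for 12 libraries, 3 in each of 4 groups taken from the labels. The authors deposited estimated counts per gene symbol on GRCh38, made with kallisto 0.44.0, a pseudoaligner, and not normalized for depth or length. The submitters' processing notes also name bcl2fastq 2.19 and DESeq2 1.32.0. The annotation release, and how transcripts were combined into genes, are not given in the sources used here. The values were whole numbers. A row with no gene name, 0.235% to 0.306% of the counts of a library, was left out. Pseudoalignment divides reads between similar transcripts by estimate, which affects paralogs such as AKR1C3.

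In R 4.3.3, a gene entered a fit if its libraries there summed to 10 counts or more. Scaling by TMM and the quasi-likelihood F test were those of edgeR 4.0.16. P-values were adjusted over all genes tested by the method of Benjamini and Hochberg, with a threshold of 0.05. KD against scramble and LPS against no LPS were each fitted on 6 libraries and the interaction on 12. The standard error is the size of the log2 fold change divided by the square root of F. Levels are CPM after TMM over the 12 libraries, and log2 CPM used an offset of 0.5. The main fits did not treat same-numbered libraries as pairs. The correlation of same-numbered deviations over genes ran from -0.0843 to 0.216, which cannot exclude pairing. Summed adipocyte markers fell in the same replicate order in KD (2148, 1636 and 829 CPM) and KD LPS (1959, 1618 and 1223). Their order differed between scramble (3759, 4005 and 4905) and scramble LPS (5184, 5794 and 5335). Gene positions and canonical transcript lengths come from GENCODE on GRCh38 and promoters from RefSeq, where PTGIS was not matched. Proteins were not used here.

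All 10 members are named. Genes of the other pathway lists are named if they passed in at least 1 fit, and the 3 genes most alike are named for PTGS2 and PTGES. The members and lists were chosen with earlier results of these data known. The alternatives were DESeq2 1.42.0, other scalings, other filters on low counts, the replicate block, 1 fit of 12 libraries and each library left out. The edgeR and DESeq2 steps were tested on simulated data. In each of these checks the share of false calls was above the threshold of 0.05, and it was highest for the interaction by DESeq2.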

Additional observations from a re-analysis of the deposited data

Results flagged for a closer look

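The effect of LPS on PTGS2 differed between the shRNAs by the test of the interaction, at 0.96 on the log2 scale (adjusted p = 0.034 from edgeR), with a larger rise in KD. All 3 KD LPS libraries, at 253 to 344 CPM, were above the scramble LPS libraries at 31.5 to 37.8 CPM. This separation is the KD effect with LPS and does not by itself show the interaction. The interaction call was lost in 8 of the 12 fits with a library left out, and with filterByExpr (adjusted p = 0.054 from edgeR).

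PLA2G12A, a secreted phospholipase A2 gene, had LPS libraries on opposite sides of the untreated libraries in the 2 shRNAs, all above in scramble and all below in KD. It was at 20.2, 19.9 and 18.8 CPM in scramble and 24.2, 24.2 and 22.9 CPM in scramble LPS, and at 16.5, 15.54 and 15.8 CPM in KD and 12.9, 14.6 and 15.47 CPM in KD LPS. Neither LPS effect passed, at 0.29 in scramble (adjusted p = 0.064 from edgeR) and -0.16 in KD (adjusted p = 0.56). The difference between these LPS effects was -0.43 on the log2 scale, and its test did not pass (adjusted p = 0.23 from edgeR). How many of all genes have libraries placed in this way was not counted. No group held enough libraries for a search for single libraries that stand apart.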

How the results depend on the processing

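Of 76 gene results, 52 had the same direction and call under every alternative, 11 lost the threshold, 6 reached it and 7 turned direction in at least 1. No result that turned had passed the test. With a library left out, the log2 fold change ran from -0.28 to 0.68 for HPGD and KD without LPS, -0.04 to 0.70 for PTGER4 and KD with LPS, -0.09 to 0.19 for PTGIS, -0.45 to 0.35 for HPGD and -0.01 to 0.07 for PTGER2 with LPS in scramble, -0.27 to 0.99 for PTGDS with LPS in KD, and -0.16 to 0.11 for the interaction of PTGES. PTGER2 with LPS in scramble was -0.0047 when scaled by library size only, and HPGD for KD without LPS was -0.14 with the replicate block. The members that passed the interaction numbered 1, against 3 by DESeq2, 4 with no filter on low counts, 0 with filterByExpr and 0 to 2 with a library left out. Members that passed and changed at least 2-fold with LPS in KD numbered 1 to 2 with a library left out. With the replicate number as a block, PTGER2 and KD without LPS lost its call (adjusted p = 0.051), ALOX5AP lost both of its calls (0.059 and 0.066), PLA2G4A with LPS in scramble passed (0.40, adjusted p = 0.032) and the interaction of PTGS2 stayed at 0.97. DESeq2, no filter on low counts and the fit on 12 libraries each also passed PLA2G4A for KD without LPS (adjusted p = 0.046, 0.032 and 0.037). The cause of these changes was not tested. The low counts of PTGDS, PTGER4 and HPGD limit the precision of their values at this depth.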
